A study of Mus musculus with 4 samples.

Results

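The genes of fatty acid and lipid droplet metabolism were followed in cultured mouse granulosa cells (GCs), which enclose and nourish the oocyte within the follicle, with and without the histone deacetylase inhibitor HDACi 4b. Members were chosen by gene name, and the choice was made with earlier results of these data known. They comprised the families Acsl, Acad, Acot, Elovl, Fads, Scd, Plin, Fabp and Cpt, with Fasn, Acaca, Acacb, Hadh, Hadha, Hadhb, Dgat1, Dgat2, Pnpla2, Lpl and Cd36. The rule found 69 of the 25239 names listed. Of these, 53 had a mean of at least 1 FPKM (fragments scaled to transcript length and to library size) over the libraries and were tested, and 16 lay under that filter.

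The series held 4 RNA-seq libraries of GCs labelled wild-type C57BL/6 from postnatal day 24, 2 of them control and 2 exposed to HDACi 4b, a small molecule directed against HDAC1 and HDAC3. All 4 libraries shared the genotype, the age and the culture, and no other agent was named for the controls. The treatment and extraction labels spoke instead of tamoxifen and of frozen ovaries from a Hdac3flox/flox line carrying Foxl2-CreERT2. The titles and the design text were followed here. In the paper's methods, mural GCs for culture came from mice primed with the gonadotropin PMSG, which would apply to control and treated libraries alike. The labels do not tell if libraries that share a group were grown from different animals or dishes. The p-values therefore rest on the spread among these 4 libraries, and that spread may be technical.

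Fatty acids enter a cell from lipoproteins and albumin, are bound by small carrier proteins and are activated to acyl-CoA. Acyl-CoA is then either carried into mitochondria on carnitine and shortened by beta-oxidation, or lengthened, desaturated and esterified to triglyceride that is stored in lipid droplets coated by perilipins. In the ovary, droplets and lipoproteins also supply cholesterol esters for steroid synthesis, and GCs are known to gain droplets as they luteinise.

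Members were called higher more often than lower under HDACi 4b, and the largest differences were those of Scd1, Elovl6 and Acsl4. Of the 53 tested, 36 were called at an adjusted p under 0.05 (67.9%), where 60.5% of the 12054 genes tested were called. The counts by direction lay farther from those of all genes than the count of calls. A total of 26 members were called higher (49.1%, beside 22.4% of all genes tested) and 10 lower (18.9%, beside 38.1%). At 2-fold or more, meaning a difference of at least 1 in log2(FPKM + 1), 11 members were called (20.8%, beside 14.2%). All 11 were higher (beside 7.54% of all genes) and 0 were lower (beside 6.7%; 0 also at an unadjusted p under 0.05 with limma). Among these 53, limma-voom on recovered reads put 2 members lower at 2-fold, Cd36 and Plin4. Acad12, under the FPKM filter, was also called by limma-voom, with a ratio of 0.467 in reads per library total. The median difference was 0.32 over the members tested and -0.15 over all genes tested, in log2(FPKM + 1), HDACi 4b minus control. Median-ratio scaling of the 4 columns moved the median of all genes to -0.0041 and that of the members to 0.47, with 29 members then higher and 5 lower. The groups did not overlap for 46 members (86.8%), a share close to the 83.1% of all genes tested. Members took 0.709% and 0.632% of the reads in the control libraries and 1.23% and 1.12% under HDACi 4b. Scd2 alone weighed heavily in this. It held 27777 and 18967 of the members' 116483 and 111594 reads in the controls. Under HDACi 4b it held 75083 and 63662 of 200032 and 178174. No list-wide test was made, since the filter and a choice of members made with earlier results known precede these counts. Dgat2 was the 1 tested member with a control mean under 1 FPKM, and Acot6 the 1 with an HDACi 4b mean under it.

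**Figure D1:**
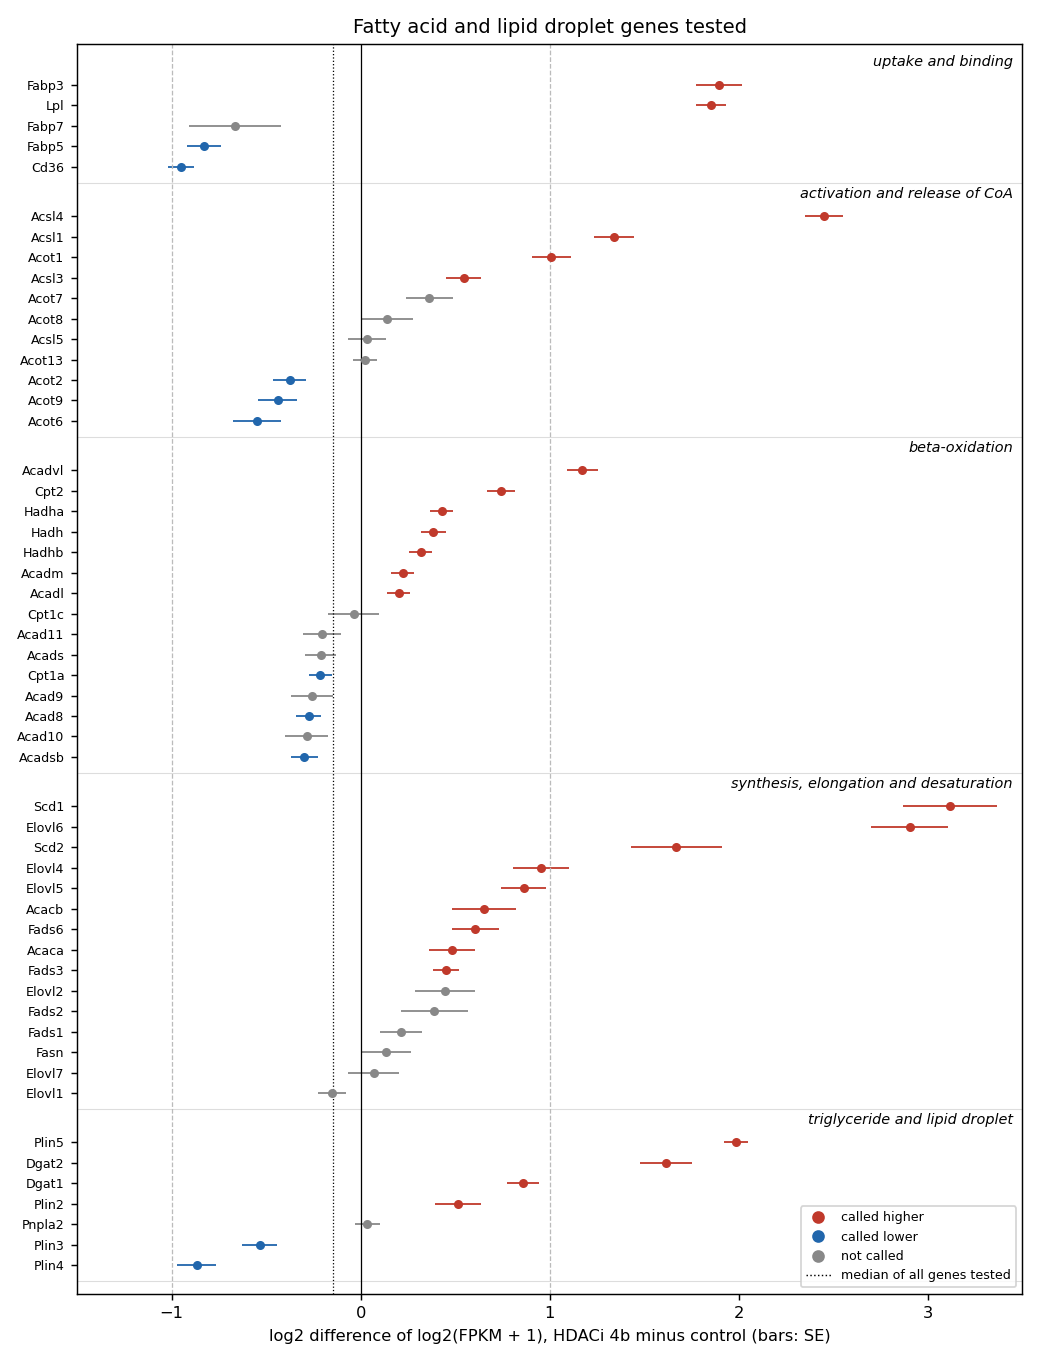
Difference of each of the 53 members tested, grouped by role, in log2(FPKM + 1), HDACi 4b minus control, with bars of 1 SE from the limma fit over 2 libraries a group. Dashed lines mark 2-fold and the dotted line the median of all genes at -0.15; the 11 members past 2-fold all lie on the right, and Scd1 lies farthest out at 3.12.

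The depth was even, at 16438728 and 17665107 recovered reads in the controls and 16215581 and 15951875 under HDACi 4b. A single read in a 2 kb transcript was worth 0.0283 to 0.0313 FPKM. Across genes, log2 values correlated at 0.989 between the controls, at 0.993 between the HDACi 4b libraries and at 0.883 to 0.896 between groups. GC markers were present (11 of 12 at a mean of 1 FPKM or more). Their summed level was 1893 and 1757 FPKM in the controls and 747 and 909 under HDACi 4b. Most of that sum was Inha, at 1219 and 1260 and then 438 and 583 FPKM. Of the GC markers, 6 were called lower and 2, Fshr and Nr5a2, higher, where 38.1% and 22.4% of all genes tested were. Theca markers summed to 520 and 536 against 479 and 519, with 3 called lower and 0 higher. That sum was mostly Mgarp and Aldh1a1, while the theca markers Cyp17a1 and Insl3 never passed 0.4025 FPKM. Stromal and contractile markers summed to 209 and 338 against 39.4 and 67.7. Fewer cells of a type and less RNA per cell cannot be told apart in such libraries. The transcripts of Hdac1 (30.2 and 31.3 FPKM, then 54.9 and 53.0) and Hdac3 (27.4 and 27.2, then 32.7 and 32.9) were both called higher. An inhibitor acts on the enzymes, so their transcripts do not check the labels.

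Promoters of members past 2-fold were searched for motifs. The RefSeq windows run from 250 bases before to 50 bases after a gene's start (build GRCm38.p6), and 55 of the 69 members had an entry. The following shows, for each of 4 roles, the member with the largest fold that had an entry, together with the single member window that held the searched core of the sterol regulatory element. They are chrX:142390536-142390785, minus strand, for Acsl4; chr8:46490716-46490965, plus strand, for the downstream of the 2 Acsl1 starts; chr11:70015429-70015678, minus strand, for Acadvl; chr3:129532136-129532354, plus strand, for Elovl6; and chr17:56117597-56117798, minus strand, for the upstream of the 2 Plin5 starts. Only bases before the start and outside the gene's own annotated exons are printed. Capitals mark matches, on either strand, to the sterol element core TCACNCCAC, the CCAAT box CCAAT, the GC box GGGCGG or the E-box CACGTG.
Acsl4: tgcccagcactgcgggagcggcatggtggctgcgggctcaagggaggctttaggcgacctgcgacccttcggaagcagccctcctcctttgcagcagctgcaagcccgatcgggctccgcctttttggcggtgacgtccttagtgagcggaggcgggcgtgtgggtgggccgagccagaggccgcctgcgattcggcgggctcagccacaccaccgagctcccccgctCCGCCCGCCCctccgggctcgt
Acsl1: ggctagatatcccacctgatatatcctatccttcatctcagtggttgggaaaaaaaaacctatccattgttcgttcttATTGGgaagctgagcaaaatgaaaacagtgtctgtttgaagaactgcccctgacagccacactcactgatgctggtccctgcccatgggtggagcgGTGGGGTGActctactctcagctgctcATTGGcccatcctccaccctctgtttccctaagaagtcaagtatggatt
Acadvl: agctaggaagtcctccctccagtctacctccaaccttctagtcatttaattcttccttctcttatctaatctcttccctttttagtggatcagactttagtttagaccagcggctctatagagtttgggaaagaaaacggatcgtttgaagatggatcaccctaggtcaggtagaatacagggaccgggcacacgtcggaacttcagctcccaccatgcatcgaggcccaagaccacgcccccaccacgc
Elovl6: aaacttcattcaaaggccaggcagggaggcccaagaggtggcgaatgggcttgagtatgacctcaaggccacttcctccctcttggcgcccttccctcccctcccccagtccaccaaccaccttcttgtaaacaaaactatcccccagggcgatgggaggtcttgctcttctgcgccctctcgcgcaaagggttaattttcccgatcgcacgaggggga
Plin5: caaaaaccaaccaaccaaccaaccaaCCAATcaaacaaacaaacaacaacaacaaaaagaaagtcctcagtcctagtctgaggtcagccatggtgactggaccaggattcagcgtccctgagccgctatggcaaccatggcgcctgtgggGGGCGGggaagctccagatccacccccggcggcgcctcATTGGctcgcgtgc
The sterol element core stood in the Acsl1 window alone among 55 members (1.82%, beside 1.44% of the 27025 genes with an entry), on the opposite strand, starting 76 bases before the RefSeq start, with a CCAAT box on each side. The Plin5 stretch held 2 CCAAT boxes around a GC box, the 2 GC boxes of Acsl4 overlapped each other, and the Acadvl and Elovl6 windows held none of the 4 motifs. Over all members, the CCAAT box was in 54.5% of genes (41.1% of all genes), the GC box in 60.0% (38.2%, and 72.0% of the genes tested) and the E-box in 9.09% (8.09%). A match is a run of letters and not a shown binding site, and the absence of a match says nothing of a factor.

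Among the genes of uptake and binding, 2 of the 5 members tested were called higher and 2 lower. The shares were 40.0% each, beside 22.4% and 38.1% of all genes tested. The summed level of the role was 57.7 and 54.6 FPKM in the controls and 109 and 116 under HDACi 4b, a ratio of 2.01. Fabp3, the heart-type fatty acid binding protein, was the most abundant member of the role, at 20.4 and 16.3 FPKM in the controls and 67.4 and 74.0 under HDACi 4b. Both treated libraries lay above both controls, and its share of the role's sum went from 35.3% and 29.8% to 61.7% and 63.6%. The difference was 1.90 (SE 0.12) in log2(FPKM + 1), 3.85-fold in mean FPKM (limma, adjusted p = 0.000342). Its exons overlapped genes on the opposite strand over 19.6% of their length, mainly Zcchc17, which stood at 5.86 and 6.18 FPKM and then 8.26 and 8.89. It also shared 29.2% of its 50-base words with the pseudogene Fabp3-ps1, whose level never passed 0.767 FPKM.

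Lpl, the lipase that frees fatty acids from circulating triglyceride, was at 6.54 and 5.87 FPKM in the controls and at 24.4 and 25.7 under HDACi 4b. The groups lay far apart, 4.03-fold in mean FPKM, with a difference of 1.85 (SE 0.08, limma, adjusted p = 0.00012). Genes that act on the lipase were called in both directions. Angptl4, a secreted inhibitor of the lipase, was also called higher (21.6 and 23.0, then 62.8 and 59.3 FPKM), whereas Lmf1, the lipase maturation factor, and the related Lmf2 were called lower (2.82 and 2.61, then 1.36 and 1.28 FPKM, and 23.8 and 25.5, then 13.6 and 14.4). Lmf1 was singled out after its values were seen. Gpihbp1, the endothelial anchor of the lipase, never passed 0.133 FPKM.

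Cd36, a scavenger receptor that takes up long-chain fatty acids and oxidised lipoprotein, was called lower. It was at 11.6 and 11.9 FPKM in the controls and at 5.50 and 5.68 under HDACi 4b (difference -0.95, SE 0.07, limma, adjusted p = 0.000406). Fabp5, the epidermal-type binding protein, was at 15.8 and 15.1 FPKM and then 8.92 and 7.61 (difference -0.83, SE 0.09, limma, adjusted p = 0.00126). The treated libraries were thus at 0.476 and 0.536 of the control means for this receptor and this carrier. Fabp7, the brain-type protein, was lower in both treated libraries (2.92 and 5.07, then 1.78 and 2.41 FPKM) but was not called (limma, adjusted p = 0.0702). Without control replicate 1 or with the replicate number as a block it was called, and its adjusted p ran from 0.00762 to 0.264 over the alternatives.

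Several of these genes are also expressed by macrophages, endothelium and fat cells. Of 10 macrophage markers, 7 reached 1 FPKM in a library and 5 as a mean over the 4 libraries, of which 4 were called lower and 1 (Cd68) higher. The summed level of the 10 was 82.8 and 127 FPKM in the controls and 58.9 and 50.8 under HDACi 4b. Cd68 made up most of the treated sums, at 6.73 and 10.8 FPKM in the controls and 37.6 and 27.1 under HDACi 4b. C1qa went from 5.26 and 7.51 to 1.13 and 1.15 FPKM, while Ptprc, which marks all leukocytes, never passed 0.0835 FPKM. Their part in the lower Cd36 and Fabp5 was not tested. Of 8 endothelial markers, 0 reached 1 FPKM in any library, and their sum stayed between 1.35 and 2.45 FPKM. Of the fat-cell markers, Lipe alone was tested and called higher, Adipoq was at 0 in 3 libraries and at 0.0908 FPKM in the last, and the sum was 3.19 and 2.78 against 7.43 and 7.53 FPKM. The part of fat-cell genes in the higher Lpl was not tested.

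The next role is the activation of fatty acids with CoA and its release. Acyl-CoA synthetases (Acsl) attach coenzyme A to a fatty acid, and acyl-CoA thioesterases (Acot) remove it. Of the 4 synthetases tested, 3 were called higher and 0 lower (0 also unadjusted and by limma-voom). Of the 7 thioesterases tested, 1 was called higher and 3 lower. Over the whole role, 36.4% were called higher and 27.3% lower, beside 22.4% and 38.1% of all genes tested. The summed level of the role was 175 and 179 FPKM in the controls and 339 and 300.01 under HDACi 4b, a ratio of 1.81.

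Acsl4, which prefers arachidonic acid and is well known in steroidogenic cells, was at 28.2 and 25.1 FPKM in the controls and at 162 and 139 under HDACi 4b. It made up 16.1% and 14.1% of the role's sum in the controls and 47.7% and 46.4% under HDACi 4b, and so became its most abundant member. The difference was 2.45 (SE 0.10), 5.64-fold in mean FPKM (limma, adjusted p = 0.000117). Acsl1, the main synthetase of liver, heart and fat, was at 1.17 and 0.967 FPKM and then at 4.42 and 4.04, a difference of 1.34 (SE 0.11, 3.96-fold, limma, adjusted p = 0.000513). Acsl3, a synthetase that sits on nascent lipid droplets, was called higher by 0.54 (SE 0.09, 1.53-fold). Acsl5 was not called, with a difference of 0.03 (SE 0.10) and overlapping groups. Thus the synthetase at the lowest control level and that at the highest showed the 2 larger differences of the family.

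Acot1, a cytosolic thioesterase of long-chain acyl-CoA, was at 2.93 FPKM in both controls and at 7.54 and 6.33 under HDACi 4b (difference 1.01, SE 0.10, 2.36-fold, limma, adjusted p = 0.000984). Its mitochondrial neighbour Acot2 was called lower, at 4.16 and 4.05 FPKM and then 3.0 and 2.85 (difference -0.38, SE 0.09, 0.714-fold). The pair is uncertain in the files, since Acot1 shared 19.2% and Acot2 27.7% of their 50-base words with other genes, chiefly each other. The call of Acot2 ended under median-ratio scaling and without either HDACi 4b library, where its adjusted p reached 0.0784 (limma, lowest 0.0139). Acot9, a mitochondrial thioesterase, was at 19.5 and 23.7 FPKM and then 15.9 and 15.3 (difference -0.44, SE 0.10). Its call ended under the same settings, with an adjusted p of up to 0.0985 (limma, lowest 0.00563), and it shared 15.2% of its words with Acot10. Acot6 was at 2.13 and 1.66 FPKM and then 0.962 and 0.987 (difference -0.55, SE 0.13), and its call ended without either HDACi 4b library, where its adjusted p reached 0.0827 (limma, lowest 0.00358). The lower calls of this role thus all rested on having both treated libraries. Acot13, Acot7 and Acot8 were not called, with differences of 0.02, 0.36 and 0.14. Acot7, an abundant brain and macrophage thioesterase, was higher in both treated libraries (39.6 and 45.2, then 60.5 and 49.4 FPKM, limma, adjusted p = 0.0518). It was called under median-ratio scaling, on recovered reads, and without control replicate 2 or HDACi 4b replicate 2, over an adjusted p of 0.0223 to 0.217.

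**Figure D2:**
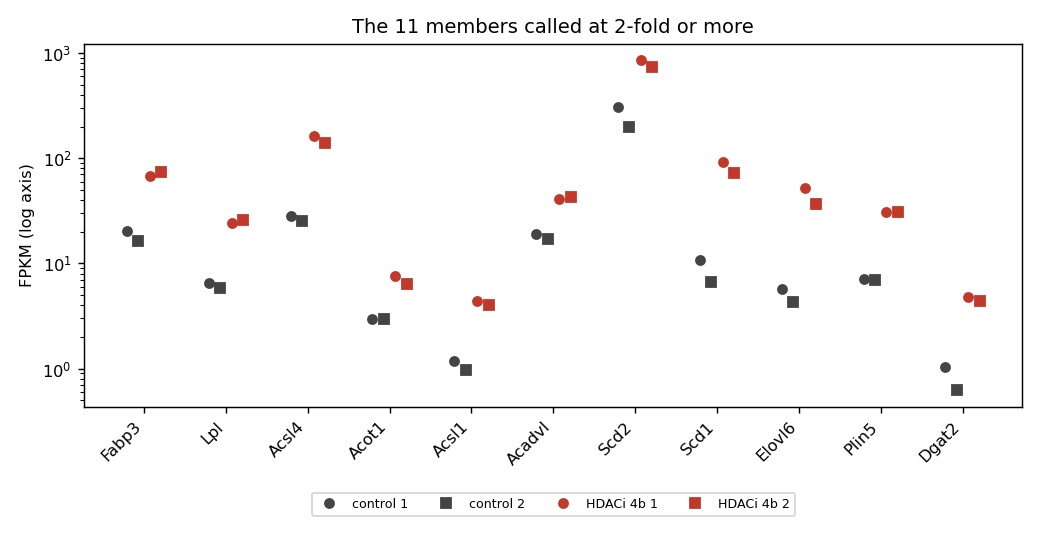
FPKM (log axis) of the 11 members called at 2-fold or more in each library, circles and squares standing for replicates 1 and 2, grey for control and red for HDACi 4b. No control point reaches a treated point of its gene, and the 2 controls lie farthest apart for Scd2 (310 and 197), Scd1 (10.9 and 6.66) and Dgat2 (1.03 and 0.624).

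Beta-oxidation was the role with the smallest ratio of summed levels. The sum was 541 and 539 FPKM in the controls and 607 and 592 under HDACi 4b, a ratio of 1.11, and its 15 members tested spanned differences from -0.30 to 1.17. A total of 7 were called higher (46.7%, beside 22.4% of all genes tested), 3 lower (20.0%, beside 38.1%) and 5 not called. Under median-ratio scaling the 7 higher calls stood beside 0 lower, also 0 at an unadjusted p under 0.05 with limma, whereas limma-voom on recovered reads called 6 lower.

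Acadvl, the very long chain acyl-CoA dehydrogenase that opens the cycle at the inner membrane, was the 1 member of the role past 2-fold. It was at 19.2 and 17.0 FPKM in the controls and at 40.9 and 42.9 under HDACi 4b (difference 1.17, SE 0.08, 2.32-fold, limma, adjusted p = 0.000357). Its exons overlapped those of Dvl2 on the opposite strand over 42.9% of their length. Dvl2 itself was lower under HDACi 4b (10.4 and 10.6, then 6.59 and 7.06 FPKM). The dehydrogenases for shorter chains had smaller differences. Acadl, for long chains, was at 101 and 102 FPKM and then 117 in both treated libraries (difference 0.20, SE 0.06), and Acadm, for medium chains, was at 32.7 and 32.2 and then 38.6 and 37.4 (difference 0.22, SE 0.06). The call of Acadl ended without a filter and without any 1 library (adjusted p up to 0.160, limma, lowest 0.00572). That of Acadm ended without control replicate 2 or either HDACi 4b library (adjusted p up to 0.147, limma, lowest 0.00524). Acads, for short chains, was not called (69.7 and 65.1, then 61.1 and 55.1 FPKM, difference -0.21, SE 0.08, limma, adjusted p = 0.067), except with the replicate block or on recovered reads (0.0401 to 0.645 over the alternatives). In the order given, the differences were 1.17, 0.20, 0.22 and -0.21, of which only the first was past 2-fold. The other Acad genes tested, given below, had differences from -0.30 to -0.21. An order by chain length was not tested.

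The carnitine palmitoyltransferases (Cpt) tested did not share a direction. Cpt1a, the outer-membrane palmitoyltransferase that limits entry of long chains, was the most abundant member of the role, at 155 and 159 FPKM in the controls and 137 and 134 under HDACi 4b. Both treated libraries lay below both controls, by a difference of -0.21 (SE 0.06, limma, adjusted p = 0.0326). That call ended under median-ratio scaling and without control replicate 2 or either HDACi 4b library (adjusted p up to 0.560, lowest 0.0312, limma). Cpt2, its inner-membrane partner, was called higher by 0.74 (SE 0.07, 1.70-fold) and stayed called in every alternative. Cpt1c, the brain form, was not called (difference -0.04, SE 0.13).

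The members of the later steps, Hadha, Hadhb and Hadh, were called higher by small amounts. Outside the name rule, Acaa2 was called higher and Acat1 lower (differences 0.51 and -0.75). Echs1 was lower in both treated libraries but not called (22.8 and 20.5, then 19.0 and 17.4 FPKM). Acaa2 and Echs1 were picked after their values were seen. Hadha and Hadhb encode the subunits of the trifunctional protein, and Hadh the short-chain hydroxyacyl-CoA dehydrogenase. Hadha was called higher by 0.43 (SE 0.06) and stayed called in every alternative. Hadh was at 37.7 and 40.4 FPKM and then 51.4 and 51.0 (difference 0.38, SE 0.07), with a call that ended without HDACi 4b replicate 1 (adjusted p up to 0.0516, limma, lowest 0.00203). Hadhb was at 18.6 and 19.0 FPKM and then 23.6 and 23.7 (difference 0.32, SE 0.06), with a call that ended without either HDACi 4b library (adjusted p up to 0.0605, limma, lowest 0.00252). The level of Hadhb is uncertain. It shared 19.7% of its words with other genes, among them Gm13910, which was listed at 24.4 and 26.6 and then 33.2 and 32.9 FPKM, above Hadhb in every library.

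The branched-chain enzymes were lower. Acad8, of valine breakdown, was at 12.9 and 12.6 FPKM and then 10.4 and 10.3 (difference -0.27, SE 0.07), and its call ended under median-ratio scaling and without control replicate 1 or either HDACi 4b library (adjusted p up to 0.159, limma, lowest 0.0128). Acadsb, of isoleucine breakdown, was at 10.7 and 11.3 FPKM and then 8.57 and 8.96 (difference -0.30, SE 0.07), and its call ended under median-ratio scaling and without control replicate 2 or either HDACi 4b library (adjusted p up to 0.124, limma, lowest 0.00655). Acad9, an assembly factor of respiratory complex I, Acad10 and Acad11 were not called, with differences of -0.26, -0.29 and -0.21. On recovered reads Acad9 and Acad10 were called lower, and their adjusted p over the alternatives ran from 0.0424 to 0.394 and from 0.0433 to 0.242.

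Synthesis, elongation and desaturation held the 2 largest differences of all members, those of Scd1 and Elovl6. Of its 15 members tested, 9 were called higher, 0 lower and 6 not called, and 0 were lower at an unadjusted p under 0.05 or by limma-voom. The summed level was 615 and 455 FPKM in the controls and 1371 and 1189 under HDACi 4b, a ratio of 2.39. Scd1 and Scd2 together made up 52.1% and 44.7% of the sum in the controls and 68.7% and 67.6% under HDACi 4b. Without this pair the sum was 295 and 252 FPKM in the controls and 430 and 385 under HDACi 4b.

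Stearoyl-CoA desaturases (Scd) place the first double bond in a saturated acyl-CoA. Scd2, the most abundant of all members, was at 310 and 197 FPKM in the controls and at 849 and 732 under HDACi 4b. The controls differed from each other by more than for most members, yet both treated libraries lay above both. The difference was 1.67 (SE 0.24, 3.12-fold, limma, adjusted p = 0.00495). Scd1 was at 10.9 and 6.66 FPKM and then at 92.1 and 72.5, the largest difference among the members at 3.12 (SE 0.25, 9.39-fold, limma, adjusted p = 0.00101). Scd3 lay under the filter, at 2 reads and 1 read in the controls and at 52 and 44 under HDACi 4b. Its ratio was 33.9 per library total (exact 95% interval for counting error only, 11.3 to 167). Scd4, the heart form, was low in all libraries, at no more than 0.344 FPKM. The Scd genes lie close in sequence, sharing 3.97% to 6.54% of their 50-base words with each other or with other genes, and reads in those stretches cannot be assigned with certainty.

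Elongases (Elovl) add carbon units to acyl-CoA. Elovl6, which lengthens saturated and monounsaturated chains of medium length, was at 5.70 and 4.32 FPKM in the controls and at 51.8 and 36.9 under HDACi 4b. The lower treated library still stood well above the higher control, for a difference of 2.90 (SE 0.20, 8.84-fold, limma, adjusted p = 0.000693). Elovl5, for polyunsaturated chains, was called higher by 0.86 (SE 0.12, 1.83-fold), and Elovl4, for very long chains, by 0.95 (SE 0.15, 2.73-fold in mean FPKM at 1.37 and 0.991 and then 3.61 and 2.84). Both calls held in every alternative. Elovl1, Elovl2 and Elovl7 were not called, with differences of -0.15, 0.45 and 0.07. Elovl2, for polyunsaturated chains, was at 1.2 and 1.90 and then 2.49 and 2.39 FPKM and was called on recovered reads, under median-ratio scaling and without control replicate 2 (limma, adjusted p from 0.0128 to 0.209).

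The enzymes that start synthesis had smaller differences than Scd1, Scd2 and Elovl6, which modify its product. Acaca and Acacb encode acetyl-CoA carboxylases, and Fasn the fatty acid synthase. Acaca was at 3.36 and 2.69 FPKM and then 4.94 and 4.30 (difference 0.48, SE 0.12), and its call ended without a filter and without control replicate 2 or either HDACi 4b library (adjusted p up to 0.122, limma, lowest 0.0038). Acacb was at 2.06 and 1.24 FPKM and then 3.01 and 3.22 (difference 0.65, SE 0.17), and its call ended without a filter and without either HDACi 4b library (adjusted p up to 0.119, limma, lowest 0.00549). Fasn was not called, at 18.1 and 15.2 FPKM and then 20.2 and 16.6, with overlapping groups and a difference of 0.14 (SE 0.13, limma, adjusted p = 0.398). Acaca shared 30.4% of its words with other genes, mostly unnamed gene models.

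Of the fatty acid desaturases (Fads), Fads1 and Fads2 act on polyunsaturated chains. Fads3 was called higher by 0.45 (SE 0.07, 1.38-fold). Fads6 was at 40.8 and 32.9 FPKM and then 53.1 and 59.7 (difference 0.61, SE 0.12), with a call that ended without HDACi 4b replicate 2 (adjusted p up to 0.0726, limma, lowest 0.00302). Fads1 and Fads2, the enzymes of arachidonic acid synthesis, were higher in both treated libraries but not called, with differences of 0.21 (SE 0.11) and 0.39 (SE 0.18). Fads1 was at 59.3 and 51.1 and then 68.9 and 59.4 FPKM, and Fads2 at 42.6 and 32.2 and then 54.6 and 43.6. The replicate block gave a call for both, median-ratio scaling for Fads1, and leaving out control replicate 1 for Fads2 (limma, adjusted p from 0.0378 to 0.532 and from 0.00592 to 0.409).

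**Figure D3:**
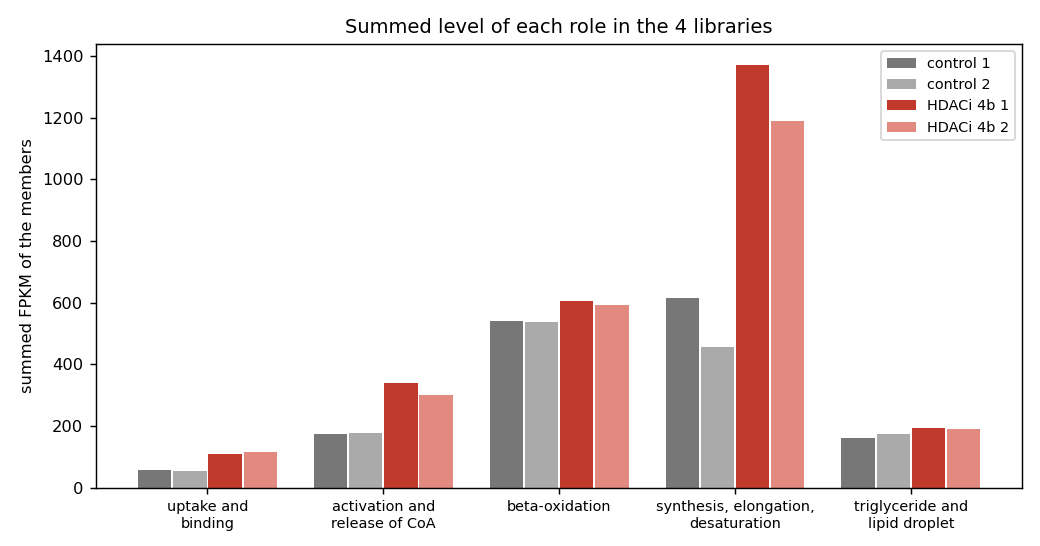
Summed FPKM of all members of each role in the 4 libraries, bars from 0, grey for control and red for HDACi 4b. Synthesis, elongation and desaturation has the largest ratio of the group means, 2.39 (615 and 455, then 1371 and 1189), and beta-oxidation the smallest, 1.11 (541 and 539, then 607 and 592).

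Of the 7 triglyceride and lipid droplet members tested, 4 were called higher (57.1%, beside 22.4% of all genes) and 2 lower (28.6%, beside 38.1%). The summed level was 160 and 176 FPKM in the controls and 194 and 191 under HDACi 4b, a ratio of 1.15. The sum combined calls in opposite directions. Dgat1 and Dgat2 encode unrelated enzymes that add the last fatty acid to diacylglycerol. Dgat2 was at 1.03 and 0.624 FPKM in the controls and at 4.74 and 4.37 under HDACi 4b (difference 1.61, SE 0.14, 5.52-fold, limma, adjusted p = 0.000603). Dgat1 was called higher by 0.86 (SE 0.08, 1.88-fold, at 12.1 and 12.4 and then 24.5 and 21.6 FPKM). Dgat1 thus remained the more abundant in FPKM in every library. Pnpla2, the lipase that takes the first fatty acid off stored triglyceride, was not called and its groups overlapped (45.04 and 42.0, then 44.9 and 44.2 FPKM, difference 0.03, SE 0.07).

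The perilipins, which coat droplets and regulate access of lipases, went in opposite directions. Plin5, the form of oxidative tissues that tethers droplets to mitochondria, was at 7.11 and 7.0 FPKM in the controls and at 30.8 and 31.0 under HDACi 4b. Its replicates were nearly equal, and its adjusted p of 7.05e-05 (limma, difference 1.99, SE 0.06, 4.38-fold) was the smallest of all members. Plin2, the ubiquitous coat, was at 22.6 and 28.8 FPKM and then 36.4 and 37.4 (difference 0.52, SE 0.12), and its call ended without either HDACi 4b library (adjusted p up to 0.0998, limma, lowest 0.0032). Plin3, a cytosolic coat of young droplets and the most abundant perilipin, was called lower, at 67.7 and 79.4 FPKM and then 50.3 in both treated libraries (difference -0.53, SE 0.09, 0.684-fold). Plin4 was also called lower, at 4.66 and 5.53 and then 2.35 and 2.31 FPKM (difference -0.87, SE 0.10, 0.457-fold). The lower calls of Plin3 and Plin4 held under median-ratio scaling and without each library in turn. Plin1, the coat of fat cells, was at 1 and 2 reads in the controls and 9 in each treated library. Plin5 thereby came close to Plin2 in FPKM under HDACi 4b, where it had stood well below it in the controls.

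**Figure D4:**
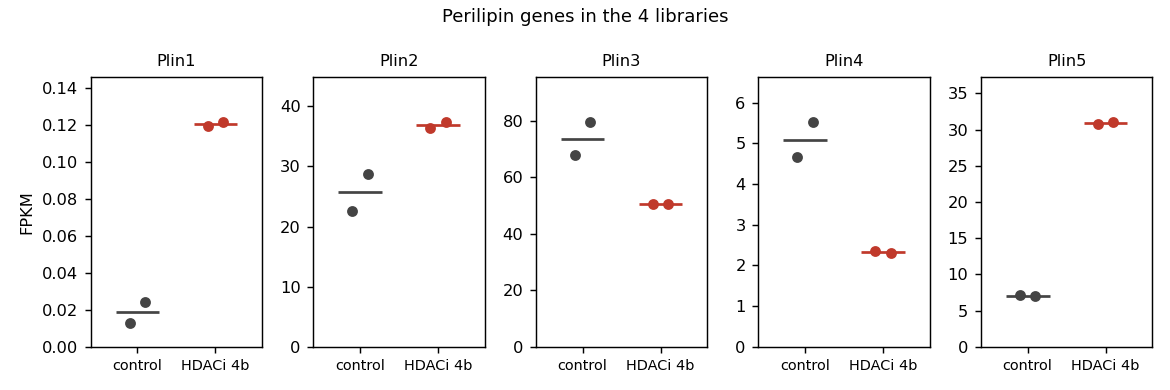
FPKM of the 5 perilipin genes in each library (points) with the group mean (line), each panel on its own linear axis from 0. Plin5 (7.11 and 7.0, then 30.8 and 31.0) and Plin2 are higher under HDACi 4b, Plin3 and Plin4 lower, and Plin1 stays under 0.122 FPKM throughout.

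The controls were not alike for all roles. Of the 15 synthesis, elongation and desaturation members tested, 13 were lower in control 2 than in control 1, at a median ratio of 0.807 and down to 0.602 for Acacb. The median ratio was 0.982 for beta-oxidation and 1.03 for the droplet genes. The treated libraries showed the same order in 12 of the 15 synthesis members, at a median ratio of 0.863 between HDACi 4b 2 and HDACi 4b 1. Replicate numbers come from the titles, which do not tell if same-numbered libraries share a batch. The calls of these members were also made without each library and with the replicate number as a block. With the block, Fads1 and Fads2 were called.

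**Figure D5:**
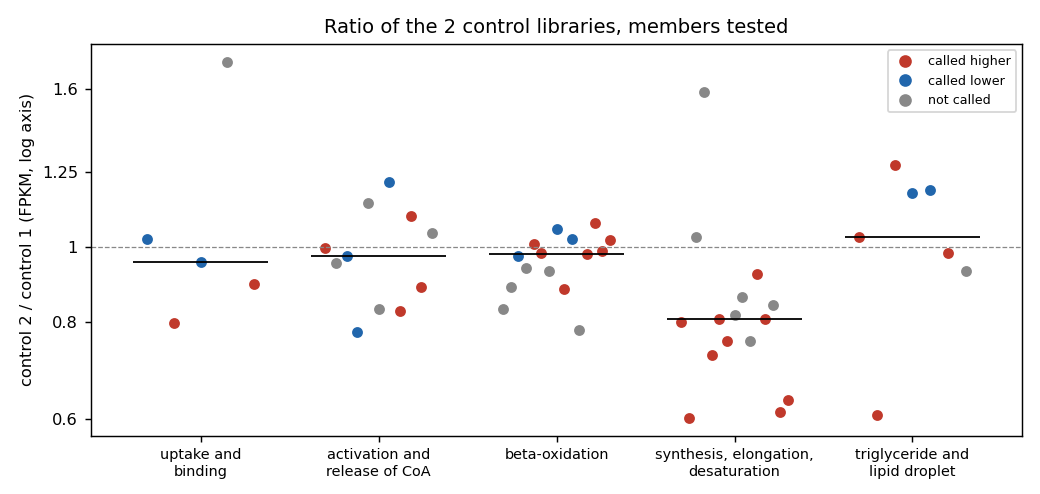
Ratio of control 2 to control 1 in FPKM (log axis) for each of the 53 members tested, by role, coloured by call, with the median of each role as a black line. The synthesis, elongation and desaturation members sit mostly below 1 (median 0.807), while the beta-oxidation members sit near it (median 0.982).

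Of the 16 members under the filter, 6 did not overlap between groups and reached a group mean of at least 0.2 FPKM. Acot4 was at 0.137 and 0.153 FPKM in the controls and at 1.16 and 1.09 under HDACi 4b, from 33 and 242 reads in the summed groups. Acot11, a brown-fat thioesterase, was at 0.0402 and 0.0841 FPKM and then 0.733 and 0.631, from 13 and 133 reads. Both were thus higher in every treated library at small read numbers, as was Scd3. Fabp4, the fat-cell binding protein, was at 0.217 and 0.290 and then 0.577 and 0.419 FPKM, and Fabp3-ps1 rested on 3 and 8 reads (ratio 2.83, exact 95% interval 0.679 to 16.5). Acad12 was lower, at 1.47 and 0.964 and then 0.558 and 0.568 FPKM, and shared 17.3% of its words with other genes, chiefly Acad10. It lay under the filter although its control mean was 1.22 FPKM. The other 10, namely Fabp2, Acot3, Acot5, Acot10, Acot12, Acsl6, Cpt1b, Elovl3, Plin1 and Scd4, never passed 0.344 FPKM in any library.

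Genes outside the name rule that act in the same pathways were counted by list. These lists too were fixed with earlier results of these data known. Over all 6 lists, 64 of 96 genes tested were called (66.7%, beside 60.5% of all genes). A total of 39 were higher (40.6%, beside 22.4%), 25 lower (26.0%, beside 38.1%) and 14 at 2-fold (14.6%, beside 14.2%). The shares of all calls and of those at 2-fold were thus near those of all genes. Of the 14 genes of fatty acid synthesis and elongation, 7 were called higher and 1 lower. Hacd3, a dehydratase of the elongation cycle, was at 92.2 and 97.8 and then 167 and 161 FPKM (difference 0.78, SE 0.07). Acss2, which makes acetyl-CoA from acetate in the cytosol, was at 2.74 and 1.94 and then 8.99 and 8.36 FPKM (1.54, SE 0.14), and Acly, which makes it from citrate, rose by 0.54 (SE 0.06). Me1, malic enzyme, a source of the reducing power that synthesis needs, went from 473 and 612 to 1148 and 1142 FPKM. It was the other of the 2 genes of the list at 2-fold and was singled out after its values were seen.

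The triglyceride and droplet list had 9 of 19 called higher (47.4%) and 3 lower (15.8%), with 5 higher and 1 lower at 2-fold (31.6%). Over all genes tested these shares were 22.4%, 38.1% and 14.2%. Mogat2, an acyltransferase of monoacylglycerol, was at 0.298 and 0.0617 FPKM in the controls and at 8.40 and 9.05 under HDACi 4b. Fitm2 and Bscl2, membrane proteins at which droplets form, were at 3.17 and 2.94 and then 8.69 and 8.87 FPKM, and at 6.01 and 5.32 and then 12.6 and 12.4. All of these were called at 2-fold. Mogat2 and Cidea, another gene of the list called higher, had control means of 0.18 and 0.0504 FPKM. Both passed the filter only through the treated libraries, so the filter itself favoured their higher calls. The list of uptake and binding genes was divided, with 4 of 11 higher (36.4%) and 5 lower (45.5%), beside 22.4% and 38.1% of all genes. Beside Angptl4 and Lmf2, Vldlr, the very low density lipoprotein receptor, fell from 8.08 and 7.49 to 2.63 and 3.10 FPKM (difference -1.19, SE 0.10).

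Oxidation lists were mixed as well. The other mitochondrial genes had 6 of 13 higher (46.2%) and 4 lower (30.8%), beside 22.4% and 38.1% of all genes tested. Etfa, an electron carrier of the dehydrogenases, was higher by 0.69 (SE 0.07). Decr1, needed for unsaturated chains, and Acat1, of ketone and isoleucine breakdown, were lower (-0.62, SE 0.07, and -0.75, SE 0.08). Of 16 peroxisomal genes, 2 were called higher (12.5%, beside 22.4% of all genes tested) and 6 lower (37.5%, near the 38.1% of all genes). Scp2, a sterol carrier and thiolase gene, rose 2.45-fold (106 and 93.9, then 230 and 259 FPKM), whereas Hsd17b4, a multifunctional enzyme of the peroxisomal cycle, fell by 0.51 (SE 0.08).

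Among 23 regulators of lipid genes tested, 11 were called higher (47.8%, beside 22.4% of all genes) and 6 lower (26.1%, beside 38.1%). At 2-fold, 2 of the 23 were called (8.70%, beside 14.2%). Mlxipl, the carbohydrate response factor ChREBP, was at 0.736 and 0.358 FPKM in the controls and at 4.61 and 5.13 under HDACi 4b (difference 1.93, SE 0.15). It too passed the filter only through the treated libraries. Prkab2, a subunit of AMP-activated kinase, was lower, at 24.0 and 23.5 and then 4.38 and 5.76 FPKM (difference -2.04, SE 0.12). Of the kinase's other subunits in the list, Prkaa2, Prkaa1 and Prkag1 were called higher by 0.85, 0.43 and 0.32. Prkab1 was not called (difference -0.25). Ppard, a nuclear receptor for fatty acids, was higher by 0.90 (SE 0.08). The transcript of Srebf1, the factor best known for Scd1, Fasn and Elovl6, was not called (21.4 and 20.5, then 27.4 and 22.3 FPKM, difference 0.23, SE 0.11), and Pparg was called lower (15.6 and 12.8, then 9.38 and 10.1 FPKM, difference -0.50, SE 0.11). Of the genes of sterol sensing, Srebf2, Scap, Insig1 and Insig2 were called higher by 0.62, 0.60, 0.90 and 0.29. Mbtps1, the protease that cuts the precursor of the factor first, was called lower (difference -0.65, 23.5 and 22.9, then 13.7 and 15.1 FPKM). Mbtps2, the protease whose later cut releases the active factor, was not called (difference -0.05). These, Srebf1, Pparg and the kinase subunits other than Prkab2 were singled out after their values were seen.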

How the data were processed

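RNA of cultured mouse GCs was made into 4 libraries with TruSeq reagents. Bowtie 0.12.2 and mm8 stand in the submitters' processing notes. How reads were counted, on which annotation, and what was done with reads of several matches is, in the sources used here, not given. The authors deposited 1 table of 25239 gene names with a value per library, without a unit in its header. The deposited values were taken as FPKM because 21608 of the 23893 names with a GENCODE M21 length (90.4%) came out as whole read numbers in every library (tolerance 0.001 reads), and 2250 more did so at a length within 50% of the annotated one. No column of another series was present. Values were tested as deposited on log2(FPKM + 1) with limma 3.58.1 (R 4.3.3; trend and robust; two-sided; Benjamini-Hochberg over 12054 genes whose mean over the libraries was 1 FPKM or more; threshold 0.05). An exact permutation of 2 against 2 libraries cannot go below 0.333. Tested on simulated data with few changed genes, this fit had a larger share of unchanged genes among its calls than the threshold allows, and limma-voom stayed near it on average. Alternatives were a pseudocount of 0.1 FPKM, testing without the filter, a block for replicate number, median-ratio scaling, limma-voom on recovered reads and leaving out each library. Samples were grouped by title.

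The members and lists were chosen with earlier results of these data known. Library values were named for members past 2-fold, for the most abundant member of each role and for members whose call ended under an alternative; others were given by difference, and the list genes were the 3 with the smallest adjusted p, plus regulators past 2-fold; a result that this rule would name is not reported here. Cd36, Fabp5, Plin4, Dgat1, Elovl4, Pnpla2 and members called only under an alternative were also given by library, a choice made after their values were seen. Words of 50 bases shared with other genes and exon overlaps came from GENCODE M21 (GRCm38), and promoters from RefSeq (GRCm38.p6); no coordinate was taken from the files. Protein sequences were planned and not used here. Recovered reads are not independent molecules, so intervals cover counting error only.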

Additional observations from a re-analysis of the deposited data

How the results depend on the processing

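Of the 53 members tested, 31 kept their direction and their side of the threshold under all 9 alternatives, and 22 of the 36 called were called in every one. No direction reversed past the threshold. The treated libraries mattered most. Without HDACi 4b replicate 1, 4571 genes were called over the whole table (1775 higher, 2796 lower) in place of 7297 (2700 higher, 4597 lower), 23 members in place of 36, and 42 other genes of the pathway in place of 64 (24 higher in place of 39). Over the 4 fits that each left out a library, genes called ran from 4571 to 6717 (higher 1775 to 2559, lower 2796 to 4181), members called from 23 to 36 (higher 19 to 26, lower 4 to 10), members at 2-fold from 10 to 13, and other pathway genes called from 42 to 60 (higher 24 to 35). Members called lower were 4 without HDACi 4b replicate 1, 4 without HDACi 4b replicate 2 and 5 under median-ratio scaling, in place of 10. With a library left out, the lone library of that group is assumed to vary like the other group. Limma-voom on recovered reads, with its own filter and scale, put 3751 genes and 18 members at 2-fold, in place of 1717 and 11, and a pseudocount of 0.1 FPKM put 2291 genes and 14 members there; the cause was not tested. Limma-voom called 8952 genes and 45 members, 41 of them among the 53 and 4 under the FPKM filter. With the replicate block 7315 genes and 40 members were called. The correlation of the deviations of same-numbered libraries was 0.0877 over 12054 genes and 2 pairs. A value over all genes cannot tell if same-numbered libraries share a batch that acts on some genes. Depth limits the members under 0.1 FPKM, which rest on a few reads.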

Other observations

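Some lipid genes outside the name rule were close to 0 in the controls and present under HDACi 4b; they were picked after their values were seen. Thrsp, a lipogenic regulator of liver and fat, was listed at 0.0556 and 0 FPKM in the controls and at 1.30 and 1.89 under HDACi 4b, under the filter. Cidea, a droplet fusion protein of fat cells, was at 0.0523 and 0.0486 FPKM and then 2.75 and 1.83. Pnpla3, a droplet lipase known from liver, was at 0.0393 and 0.0122 and then 0.611 and 0.311 FPKM, and Slc2a4, the insulin-responsive glucose transporter, at 0 and 0.0651 and then 1.67 and 1.91. Adipoq and Lep, the hormones of fat cells, stayed at or under 0.0908 FPKM in the same libraries.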
